A study of Mus musculus with 4 samples.

Results

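The LIM homeodomain code of dorsal interneurons was read from 10 transcription factor genes, *Lhx1*, *Lhx2*, *Lhx3*, *Lhx4*, *Lhx5*, *Lhx9*, *Lmx1a*, *Lmx1b*, *Isl1* and *Isl2*. They were picked by gene symbol alone, and each matched 1 of the 24421 genes of the expression table. RNA was sequenced from GFP+ cells that had been sorted from the neural tubes of mouse embryos at embryonic stage E11.5. The embryos carried either 1 copy (Prdm13GFP/+, called Het) or 2 copies (Prdm13GFP/GFP, called Homo) of a knock-in allele, in which GFP and a stop codon within the first exon of *Prdm13* disrupt production of PRDM13. Both genotypes thus carried the GFP allele, no wild-type embryos were among the libraries, and the sorted cells were those in which the *Prdm13* locus drove GFP. RNA of 7 Het embryos made 1 pool and RNA of 9 Homo embryos made the other, and 2 libraries were prepared from each pool. The libraries of a genotype are therefore technical replicates, and every p-value below measures the spread between libraries and not that between embryos.

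LIM homeodomain proteins bind DNA through a homeodomain and bind cofactors such as LDB1 through paired LIM zinc fingers, and different combinations of them mark different classes of newborn spinal neurons. In the dorsal spinal cord LHX2 and LHX9 mark dI1 neurons, LHX1 and LHX5 mark dI2, dI4 and dI6 neurons, ISL1 marks dI3 neurons and LMX1B marks dI5 neurons. The dI4 neurons also make PAX2 and become inhibitory, whereas the dI3 and dI5 neurons make TLX3 and become excitatory. More ventrally, ISL1, ISL2, LHX3 and LHX4 act in motor neurons, and LHX3 and LHX4 also in V2 interneurons. LMX1A acts in the roof plate, at the dorsal midline.

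The question put to the genes was how their RNA levels differed between sorted cells with and without PRDM13. *Lhx1* and *Lhx5* were the 2 most abundant of the 10 genes and were 5.62-fold and 4.34-fold lower in Homo. *Lmx1b* rose 11.6-fold and *Isl1* rose 4.51-fold, each from a mean under 2 RPKM (reads per kilobase of exon, scaled to the size of the library). *Lhx2*, at a much lower level, rose 2.23-fold. The other 5 genes, *Lhx3*, *Lhx4*, *Lhx9*, *Lmx1a* and *Isl2*, never exceeded 0.414 RPKM in a library. They stayed under the filter of a mean of 1 RPKM in either genotype and were not tested.

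Genes were tested on log2(RPKM + 0.1) with limma, and a gene was called at a Benjamini-Hochberg adjusted p under 0.05 together with a fold of at least 1.5. Of the 12046 genes tested, 3.65% were called higher in Homo, 2.67% were called lower and 6.33% were called either way. All 5 tested members were called, 3 higher and 2 lower. *Lhx2* passed the filter only through its Homo level, so it could be tested only because it was higher there. The libraries of the 2 genotypes did not overlap for any of the 5 genes, which was also true of 62.1% of all genes tested (31.7% higher in Homo, 30.3% lower). The median log2 fold change of all genes tested was 0.01. The deposited values had already been normalised between libraries, which brings this median close to no change. It therefore cannot show whether all RNA shifted. These are levels in RNA of many cells: fewer cells of a type and less RNA per cell cannot be told apart.

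**Figure D1:**
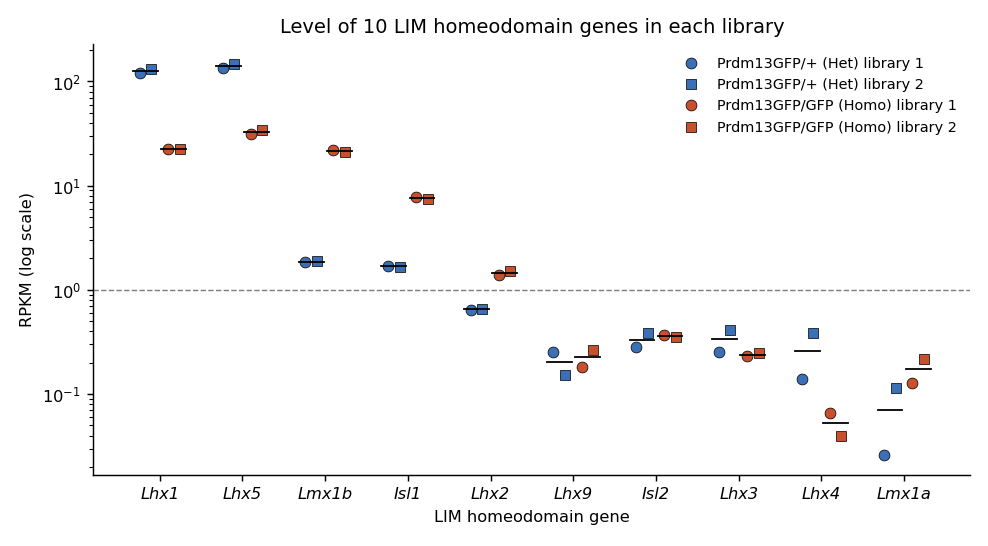
RPKM on a log scale (vertical) of the 10 LIM homeodomain genes (horizontal) in each of the 4 libraries, with circles and squares for libraries 1 and 2, blue for Het and red for Homo, short bars for the mean of a genotype and a dashed line at 1 RPKM. *Lhx1* and *Lhx5* lie above 100 RPKM in Het and between 22.3 and 34.0 in Homo, *Lmx1b*, *Isl1* and *Lhx2* lie higher in Homo, and the other 5 genes stay below 0.414 RPKM in every library.

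The libraries held 12098449 to 19240895 reads on genes, as recovered from the RPKM values, and 11774 to 11831 genes at 1 RPKM or more. *Prdm13* itself read 114 and 127 RPKM in Het and 310 and 324 in Homo, a log2 fold change of 1.40 (SE 0.06, limma adjusted p = 3.6e-05). A level summed over the gene does not separate the disrupted allele from the intact one, so it does not check the genotype labels. All 10 markers of the neural tube and the *Prdm13* lineage passed the filter, so the defining genes of the labelled tissue were present. Of these 10, *Prdm13* was called higher, *Lbx1* lower and 8 were not called. Among the neuronal markers the log2 differences were 0.34 for *Tubb3*, 0.17 for *Elavl3* and -0.07 for *Dcx*, and among the progenitor markers -0.48 for *Sox2* and 0.10 for *Nes*. The part of these differences in the values of the LIM genes was not tested. Markers of other cells summed to 1.73 to 1.94 RPKM (endothelial), 2.62 to 3.85 (mesenchymal), 14.5 to 21.5 (floor plate, nearly all *Ntn1*, with *Foxa2* and *Shh* under 0.5), 30.8 to 34.5 (erythroid, with *Hba-a1* at 0 in every library) and 636 to 716 (neural crest and glia, nearly all *Fabp7*, also a progenitor gene). Of these 5 lists limma called *Foxd3*, also a dI2 gene, and voom on recovered reads also called the mesenchymal *Pdgfra* lower (log2 fold change -0.84, adjusted p = 0.0086).

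*Lhx1*, needed with *Lhx5* to keep dorsal inhibitory neurons on their course, read 121 and 131 RPKM in the Het libraries and 22.3 and 22.5 in the Homo libraries. The lowest Het library thus stood far above both Homo libraries. Its mean fell from 126 ± 7.43 RPKM (SD, n = 2) to 22.4 ± 0.139 (SD, n = 2), a log2 fold change of -2.48 (SE 0.06, adjusted p = 3.4e-06). These values rest on 3839, 6608, 998 and 847 reads. Ranked by mean RPKM within each genotype, *Lhx1* moved from place 456 in Het to place 3868 in Homo. It was called in 16 of 16 alternative analyses, with log2 fold changes of -2.54 to -2.42.

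*Lhx5*, its closest relative, read 134 and 149 RPKM in Het against 31.1 and 34.0 in Homo, from 4250, 7447, 1384 and 1272 reads. Again no Homo library came near a Het library. The means were 141 ± 10.1 and 32.6 ± 2.03 RPKM (SD, n = 2 each), a log2 fold change of -2.12 (SE 0.07, adjusted p = 1.2e-05). *Lhx5* moved from rank 388 to rank 2673. It was called in 15 of 16 alternatives and missed the threshold when no filter on RPKM was applied (adjusted p = 0.0567). Both genes therefore remained expressed in Homo cells, at 22.3 RPKM or more in each library.

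The longest run of identical bases in the transcripts of *Lhx1* and *Lhx5* is shown because both genes fell, and reads that match both genes could be counted for either. It lies in the coding sequence of both and is 20 bases long.
Lhx1 and Lhx5: cacctcaactgcttcacctg
The coding run shared by *Lmx1a* and *Lmx1b* is 21 bases long, that of *Isl1* and *Isl2* 23 and that of *Lhx3* and *Lhx4* 20. The longest run of any pair, 65 bases of a GA repeat outside the coding sequence, is shared by *Lhx5* and *Lhx9*, and *Lhx9* had 16 to 21 reads in a library. The nearest relatives of the 2 genes that rose most stayed low in all 4 libraries, with *Lmx1a* at or below 0.219 RPKM and *Isl2* at or below 0.383. On the opposite strand, annotated exons of *Gm27199* share 69 bases with those of *Lhx5*, and exons of *Gm27196* share 188 with those of *Lhx3*, and reads there cannot be told apart without strand.

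*Lhx1* lies on the minus strand of chromosome 11 (chr11:84517975-84525534, GRCm38), and a long noncoding RNA gene, *Lhx1os*, starts 125 bases away on the opposite strand (chr11:84525660-84535831). *Lhx1os* read 81.0 and 79.0 RPKM in Het and 16.5 and 17.9 in Homo, a log2 fold change of -2.21 (SE 0.06, adjusted p = 5.3e-06). The pair thus fell together. The strand setting of the read counting is not given in the sources used here, but the annotated exons of the 2 genes do not overlap. The 250 bases before the start of *Lhx1*, taken from RefSeq on GRCm38.p6 (chr11:84525535-84525784, minus strand), are shown because both genes read outward from them and 125 of the bases belong to *Lhx1os*. Capitals would mark an E-box, the CANNTG motif of bHLH factors, and none occurs on either strand of this window.
Lhx1 promoter: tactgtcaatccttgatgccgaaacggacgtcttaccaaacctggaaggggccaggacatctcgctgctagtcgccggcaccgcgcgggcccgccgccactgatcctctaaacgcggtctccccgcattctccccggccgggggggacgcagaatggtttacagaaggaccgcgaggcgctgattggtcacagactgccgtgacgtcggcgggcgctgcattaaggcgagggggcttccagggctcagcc
On its other side *Aatf*, 4390 bases from *Lhx1*, had a log2 fold change of -0.35 (adjusted p = 0.0226), under the 1.5-fold limit.

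**Figure D2:**
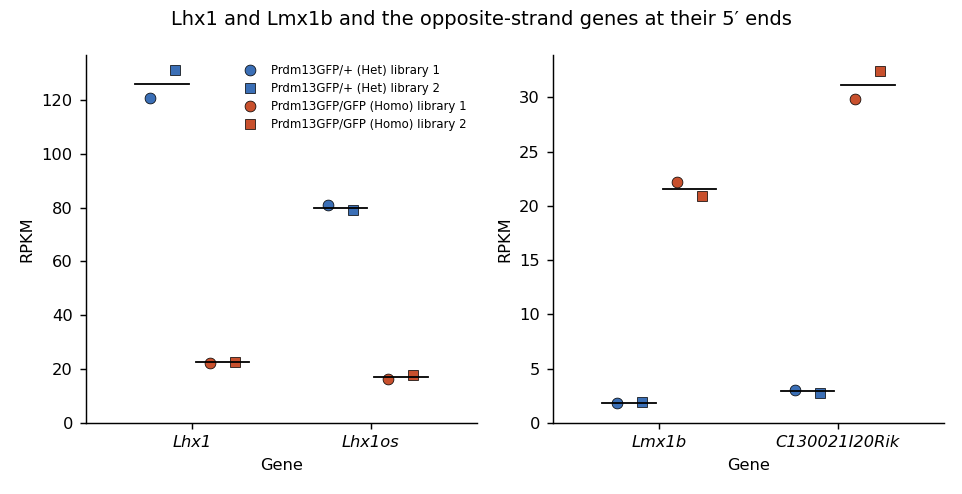
RPKM (vertical, from 0) of *Lhx1* and *Lhx1os* (left) and of *Lmx1b* and *C130021I20Rik* (right) in the Het (blue) and Homo (red) libraries, with circles and squares for libraries 1 and 2 and bars for the mean of each genotype. *Lhx1* and *Lhx1os* are each lower in both Homo libraries, and *Lmx1b* and *C130021I20Rik* are each higher in both.

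*Lmx1b*, which dI5 neurons need to settle as excitatory dorsal horn neurons, read 1.84 and 1.88 RPKM in Het and 22.2 and 20.9 in Homo. The Het values nearly coincide and lie far below both Homo values. Its mean rose from 1.86 ± 0.0264 to 21.6 ± 0.898 RPKM (SD, n = 2 each), a log2 fold change of 3.46 (SE 0.07, adjusted p = 3.4e-06). It was called in 16 of 16 alternatives, and its log2 fold change was lowest, at 2.98, with a pseudocount of 1. *Lmx1b* climbed from rank 10859 to rank 4003. The recovered reads were 78, 126, 1320 and 1047, but all share the divisor 3, and the values alone would also allow 26, 42, 440 and 349.

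*Lmx1b* also lies on the minus strand (chr2:33560965-33641208) and overlaps the first 16 bases of *C130021I20Rik*, an uncharacterised gene on the plus strand (chr2:33641193-33645663). *C130021I20Rik* read 3.04 and 2.76 RPKM in Het and 29.9 and 32.4 in Homo, a log2 fold change of 3.38 (SE 0.08, adjusted p = 3.4e-06). As at *Lhx1*, the member and its opposite-strand partner moved in 1 direction. Reads from the 16 shared bases cannot be assigned without strand. The RefSeq window of *Lmx1b* (chr2:33641099-33641348, minus strand, GRCm38.p6) is shown because both genes reach into it. It lies before a start that is inside the gene as given above, so 110 of its bases belong to *Lmx1b* and 156 to *C130021I20Rik*. It holds 1 E-box, in capitals (chr2:33641167-33641172), within the 110 bases of *Lmx1b*.
Lmx1b window: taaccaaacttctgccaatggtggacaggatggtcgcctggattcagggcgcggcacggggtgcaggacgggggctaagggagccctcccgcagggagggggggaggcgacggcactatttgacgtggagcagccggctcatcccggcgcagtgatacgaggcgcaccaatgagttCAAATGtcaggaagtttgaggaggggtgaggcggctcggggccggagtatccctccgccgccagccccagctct

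*Isl1*, the marker of dI3 neurons, also expressed by motor neurons and sensory ganglia, read 1.71 and 1.66 RPKM in Het and 7.84 and 7.38 in Homo, from 50, 77, 322 and 255 reads. Both Homo libraries exceeded both Het libraries. The means were 1.69 ± 0.0331 and 7.61 ± 0.325 RPKM (SD, n = 2 each), a log2 fold change of 2.11 (SE 0.09, adjusted p = 3.8e-05). *Isl1* rose from rank 11022 to rank 7790. It was called in 15 of 16 alternatives, and its adjusted p was 0.0505 with no filter on RPKM. The log2 fold change ranged from 1.68 with a pseudocount of 1 to 2.17 with voom on recovered reads. *Isl1* lies at chr13:116298270-116309688 with no other gene of the table within 20 kb. Its RefSeq window (chr13:116309689-116309938, minus strand, GRCm38.p6) is shown because the gene rose with *Lmx1b*. It holds 1 E-box, of the form CAGCTG, in capitals.
Isl1 promoter: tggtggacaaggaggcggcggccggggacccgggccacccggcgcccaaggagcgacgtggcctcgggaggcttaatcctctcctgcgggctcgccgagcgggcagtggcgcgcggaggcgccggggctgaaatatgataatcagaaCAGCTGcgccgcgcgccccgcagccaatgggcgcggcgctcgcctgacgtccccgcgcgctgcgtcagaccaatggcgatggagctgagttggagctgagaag
A CANNTG match occurs in 66.2% of 32851 RefSeq windows of this length and CAGCTG in 13.0%, so the matches describe these letters and nothing about binding.

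Other *Isl1*-expressing cells were looked for by their own markers. The 6 motor neuron markers (*Mnx1*, *Chat*, *Slc18a3*, *Slc5a7*, *Lhx3*, *Isl2*) summed to 1.62 and 1.75 RPKM in Het and 1.06 and 1.16 in Homo, and none passed the filter. The last 2 of them are themselves among the 10 LIM homeodomain genes, and the part of such cells in the *Isl1* values was not tested. Of the 7 dorsal root ganglion markers 5 were under the filter, among them *Prph* and *Avil*. The list summed to 16.8 to 18.0 RPKM over the 4 libraries, nearly all of it *Ntrk2* and *Ntrk3*, neurotrophin receptors. *Ntrk3* was called higher (log2 fold change 0.93, adjusted p = 0.0011) and *Ntrk2* was at -0.46 (adjusted p = 0.0038), under the 1.5-fold limit.

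*Lhx2*, which with *Lhx9* sets the identity of dI1 commissural neurons, read 0.643 and 0.658 RPKM in Het and 1.37 and 1.53 in Homo, from 21, 34, 63 and 59 reads. The Homo values lay above both Het values, but at a level where 3 reads, taken as the limit of detection, are worth up to 0.0919 RPKM. The means were 0.651 ± 0.0103 and 1.45 ± 0.110 RPKM (SD, n = 2 each), a log2 fold change of 1.05 (SE 0.23, adjusted p = 0.0228). This call was the least firm of the 5 and held in 10 of 16 alternatives. It was lost when Homo library 1 (adjusted p = 0.0775), Homo library 2 (adjusted p = 0.0988) or Het library 1 (adjusted p = 0.0513) was left out. It was also lost with no filter (adjusted p = 0.127), with the treat test, and with a pseudocount of 1, which brought the log2 fold change to 0.57. *Lhx2* lies at chr2:38339271-38369737.

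*Lhx9*, the other dI1 gene (chr1:138825186-138848839), read 0.255 and 0.152 RPKM in Het and 0.182 and 0.267 in Homo, from 16 to 21 reads a library. Here the genotypes overlapped. The dI1 factors *Atoh1*, *Barhl1* and *Barhl2* were also under the filter, between 0.280 and 0.783 RPKM. *Pou4f1*, which dI1 shares with dI2, dI3 and dI5 neurons, was called higher, at 16.9 and 18.1 RPKM in Het and 52.9 and 52.7 in Homo. A difference in *Lhx9* was not detectable at this depth.

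The genes best known from ventral neurons were near the limit of detection. *Lhx3* (chr2:26200212-26208249) read 0.255 and 0.414 RPKM in Het and 0.233 and 0.246 in Homo, from 7, 18, 9 and 8 reads. *Isl2* (chr9:55538677-55547667) read 0.280 and 0.383 in Het and 0.366 and 0.355 in Homo, from 6, 13, 11 and 9 reads. The genotypes overlapped for *Isl2* and stood close together for *Lhx3*. Limma voom on the recovered reads of genes with at least 10 reads let all 10 members be tested and called 6.71% of 15207 genes. By it *Lhx3* (adjusted p = 0.504) and *Isl2* (adjusted p = 0.919) were not called.

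*Lhx4* (chr1:155698031-155751726) read 0.140 and 0.383 RPKM in Het and 0.0665 and 0.0395 in Homo, from 9, 39, 6 and 3 reads, or from 3, 13, 2 and 1, since the values allow both. Het library 2 stood apart from the other 3 libraries. Voom called *Lhx4* lower, with a log2 fold change of -2.18 (SE 0.59, adjusted p = 0.0107), whereas limma on log2(RPKM + 0.1) without a filter did not (adjusted p = 0.403). V2 interneuron markers other than *Lhx3* were as low, and their list of 6 summed to 0.679 to 0.915 RPKM. Of that list voom called *Vsx1* higher (log2 fold change 2.41, adjusted p = 0.0186), from 1, 1, 9 and 6 reads.

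*Lmx1a*, a roof plate gene (chr1:167688230-167848741), read 0.0259 and 0.114 RPKM in Het and 0.129 and 0.219 in Homo, from 1, 7, 7 and 10 reads. It was not called by voom (adjusted p = 0.198). The 6 roof plate markers summed to 2.97 and 3.13 RPKM in Het and 2.66 and 2.55 in Homo. Among them *Wnt1* alone passed the filter and was called lower, from 1.82 and 1.75 to 0.908 and 0.956 RPKM. It passed only through its Het level. Voom also called *Rspo1* of this list lower (log2 fold change -2.62, adjusted p = 0.0240).

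RPKM is a level per length of exon, so it also allows the genes to be ordered within a library. In Het the order was *Lhx5*, *Lhx1*, *Lmx1b*, *Isl1*, *Lhx2*, with the other 5 below. *Lhx5* exceeded *Lhx1* in both Het libraries, and *Lmx1b* exceeded *Isl1* in both. In Homo the order of the 5 was the same, but *Lhx1* and *Lmx1b* were now neighbours, at 22.3 and 22.5 against 22.2 and 20.9 RPKM. The lower *Lhx1* value and the higher *Lmx1b* value lie closer together than the *Lmx1b* libraries do. The 5 low genes overlapped each other in part in both genotypes and were not ordered.

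The sum of the 10 genes was 260 and 285 RPKM in Het and 85.8 and 87.5 in Homo. *Lhx1* and *Lhx5* made up 98.0% of this sum in each Het library, and 62.3% and 64.6% in the Homo libraries. The mean share differed by -34.6 percentage points, Homo minus Het (exact two-sided permutation test over libraries, p = 0.333, the smallest that 2 against 2 libraries allow). *Lmx1b* and *Isl1* together made up 1.37% and 1.24% in Het and 35.0% and 32.4% in Homo. The remaining 6 genes took 0.615% to 0.738% in Het and 2.74% to 3.04% in Homo. The LIM homeodomain RNA of Het cells was thus almost wholly that of *Lhx1* and *Lhx5*, and that of Homo cells was mixed, with these 2 genes still in the majority.

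**Figure D3:**
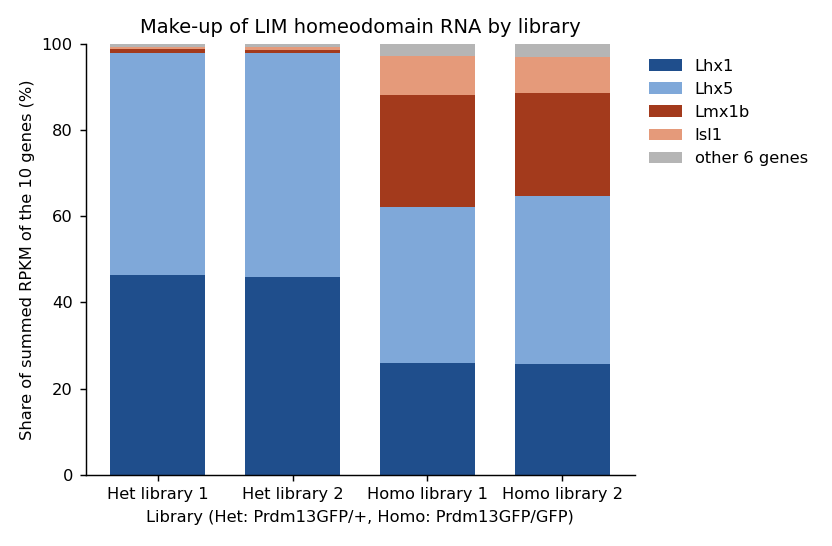
Share of the summed RPKM of the 10 genes (vertical, percent, from 0 to 100) taken by *Lhx1*, *Lhx5*, *Lmx1b*, *Isl1* and the other 6 genes in each of the 4 libraries (horizontal). *Lhx1* and *Lhx5* fill 98.0% of each Het bar and 62.3% and 64.6% of the Homo bars, where *Lmx1b* takes 25.9% and 23.9% and *Isl1* 9.14% and 8.44%.

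Within the falling pair, *Lhx1* fell more than *Lhx5*. The ratio of *Lhx1* to *Lhx5* was 0.899 and 0.883 in Het and 0.717 and 0.662 in Homo. Within the rising pair, *Lmx1b* rose more than *Isl1*, and their ratio went from 1.08 and 1.13 to 2.83 and 2.84. Across the pairs, the ratio of *Lhx5* to *Lmx1b* went from 72.8 and 79.0 to 1.40 and 1.62, and that of *Lhx1* to *Lmx1b* from 65.5 and 69.7 to 1.01 and 1.08. No ratio overlapped between genotypes, and for each of these 4 ratios the exact permutation p was 0.333, the smallest possible here.

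LIM homeodomain proteins work with LDB proteins and the single-stranded DNA binding proteins that stabilise them, and LIM-only proteins compete for the same partners. Of the 10 genes in this list 9 passed the filter and 0 were called by limma, with a median log2 fold change of 0.10 against 0.01 for all genes tested. At an unadjusted p under 0.05 there were 3, *Ldb1*, *Lmo2* and *Lmo4*, each under 1.5-fold, and voom called 0. *Ldb1*, the main cofactor, read 120 and 128 RPKM in Het and 135 and 143 in Homo (log2 fold change 0.16, SE 0.05, adjusted p = 0.0761). *Lmo4*, a LIM-only gene, read 38.8 and 38.2 in Het and 28.1 and 27.0 in Homo (log2 fold change -0.48, SE 0.05, adjusted p = 0.0016). Its libraries did not overlap, though the difference stayed under 1.5-fold. The cofactor genes together summed to 372 to 405 RPKM, above the sum of the LIM homeodomain genes in every library.

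The genes that share the neurons of *Lhx1* and *Lhx5* or of *Lmx1b* and *Isl1* were listed with earlier results of these data known, so their counts are a description. All 9 partners on the inhibitory side were called lower, with log2 fold changes from -2.62 to -0.61 and a median of -2.46. *Pax2*, which dI4 neurons make alongside *Lhx1* and *Lhx5*, read 106 and 119 RPKM in Het and 17.7 and 18.6 in Homo (log2 fold change -2.62, SE 0.07, adjusted p = 5.0e-06). *Gad1*, an enzyme of GABA synthesis, changed by -2.17 and *Slc32a1*, the vesicular transporter of GABA and glycine, by -2.46. *Lbx1*, made by dI4, dI5 and dI6 neurons alike, changed least, by -0.61 (SE 0.10, adjusted p = 0.0076). Its call was lost when Homo library 1 (adjusted p = 0.0653) or Het library 2 (adjusted p = 0.0527) was left out.

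On the excitatory side 6 of 6 partners were called higher, with log2 fold changes from 1.59 to 4.11 and a median of 2.26. The 6 include *Pou4f1*, at 1.59, which other dorsal classes share. They also include *Phox2a*, at 3.66, which the paper counts among ventral factors expressed ectopically in the mutants. *Tlx1* passed the filter only through its Homo level (mean 0.925 RPKM in Het and 3.96 in Homo). Without it, 5 of 5 were called higher, with a median of 2.50. *Tlx3*, the selector of excitatory fate in dI3 and dI5 neurons, read 4.63 and 5.63 RPKM in Het and 86.2 and 94.1 in Homo (log2 fold change 4.11, SE 0.10, adjusted p = 3.9e-06). *Prrxl1*, a homeobox gene of the same neurons, changed by 2.50 and *Slc17a6*, a vesicular glutamate transporter, by 2.01. The change of *Lmx1b*, 3.46, lay within the range of these partners, as did that of *Isl1*, 2.11. *Lhx1* and *Lhx5*, at -2.48 and -2.12, lay within the range of the inhibitory partners. For the dI2 class, which makes *Lhx1* and *Lhx5* without *Pax2*, *Foxd3* and *Neurog1* were listed. *Foxd3* was called lower (10.1 and 12.8 RPKM in Het, 4.199 and 4.252 in Homo). *Neurog1*, made by dI2 progenitors, was called higher (9.85 and 12.5 in Het, 35.3 and 42.0 in Homo). The paper places NEUROG1 also in dI6 progenitors and ventrally, and shows ectopic dorsal *Neurog1* RNA in the mutants. *Neurog1* therefore does not follow the dI2 class alone. By antibody staining at an earlier stage, the paper found markedly fewer dI2 cells and no dI4 cells in the mutants. It also found more dI3 and dI5 cells. Those are counts of cells by protein, not RNA levels of sorted cells.

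**Figure D4:**
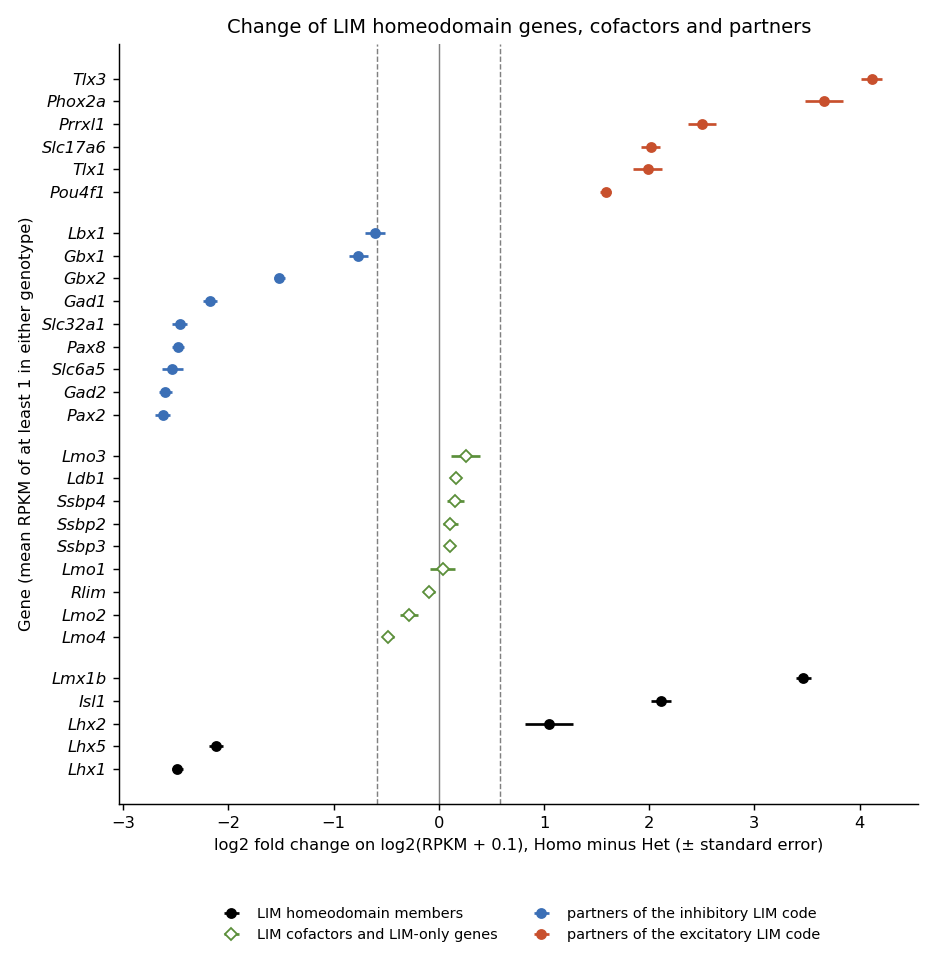
Log2 fold change, Homo minus Het, on log2(RPKM + 0.1) (horizontal) with standard errors as bars for each tested gene (vertical), with black for LIM homeodomain genes, green for cofactors and LIM-only genes, blue and red for partners of the inhibitory and excitatory code, filled symbols for called genes and dashed lines at 1.5-fold. The 9 cofactors lie between -0.48 and 0.25, inside the dashed lines, and the 5 LIM homeodomain genes lie outside them.

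Of the 8 genes of the table within 20 kb of a member, all tested, *C130021I20Rik* was called higher, *Lhx1os* was called lower and 6 were not called. *Qsox2*, 874 bases from *Lhx3*, had a log2 fold change of 0.05 (adjusted p = 0.623). *Scaper*, 2211 bases from *Isl2*, was at -0.14 (adjusted p = 0.237). The uncalled neighbours of the low members were themselves expressed, *Acbd6* near *Lhx4* at 17.1 to 20.6 RPKM.

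The genes whose 4 library values were closest to those of a called member were found by the Euclidean distance between log2(RPKM + 0.1) values centred per gene, over the 4 libraries. Nearest to *Lhx1* were *Pax8* (distance 0.0879), a PAX gene of the same neurons as *Pax2*, *Slc32a1* (0.0890) and *Myo5b* (0.123). *Myo5b* passed the filter only through its Het level. Nearest to *Lhx5* were *Slc30a3* (0.0510), a zinc transporter of synaptic vesicles, *Lhx1os* (0.162) and *Gad1* (0.176). *Pax8*, *Slc32a1* and *Gad1* are also on the list of inhibitory partners above.

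Nearest to *Lmx1b* were *C130021I20Rik* (0.2004), *Shox2* (0.245), a homeobox gene, and *Mir680-3* (0.291), which had no reads in Het. *Mir680-3* read 1.06 and 1.26 RPKM in Homo, with too few reads for the voom fit that needs at least 10. Its call was lost with voom on the same genes (adjusted p = 0.183) and with a pseudocount of 0.01 (limma adjusted p = 0.0708). *Shox2* and *Mir680-3* passed the filter only through their Homo levels. *Shox2* read 0.397 and 0.535 RPKM in Het and 5.92 and 6.03 in Homo. Nearest to *Isl1* were *Frzb* (0.103), a secreted WNT antagonist, *Slc1a3* (0.119), a glial glutamate transporter, and *Fgd5* (0.136), which also passed only through its Homo level. *Frzb* read 9.20 and 9.81 RPKM in Het and 40.9 and 39.9 in Homo. Nearest to *Lhx2* were *Sstr2* (0.0512), a somatostatin receptor, *Ephb1* (0.0596), an ephrin receptor, and *BC024139* (0.0691). With 4 libraries in 2 genotypes the distance mostly reflects the size of the genotype difference.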

How the data were processed

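RNA-seq was made from GFP+ cells of E11.5 Prdm13GFP/+ (7 embryos) and Prdm13GFP/GFP (9 embryos) neural tubes, with 1 RNA pool and 2 libraries per genotype. The authors aligned reads with TopHat2 2.1.0 to mm10 RefSeq genes, counted them on exons with featureCounts, normalised them with TMM in edgeR 3.6.8 (versions as in the submitters' processing notes) and deposited RPKM for 24421 genes. The strand setting of the counting and the read length are not given in the sources used here. Groups and replicate numbers were taken from the labels.

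The deposited RPKM values were used without further scaling. They are not counts, so the test was limma 3.58.1 in R 4.3.3 (lmFit, eBayes with trend, two-sided, Benjamini-Hochberg) on log2(RPKM + 0.1), a scale that makes changes of low genes look smaller. It took in the 12046 genes whose mean RPKM reached 1 for at least 1 genotype. Calls needed a fold of 1.5 or more besides an adjusted p under 0.05. Whole reads were solved for from the RPKM values and came out for 99.9% of 19200 genes above 0 (relative tolerance 6e-07). Where all reads of a gene share a divisor, a smaller multiple is also possible. Library totals were 12098449 to 19240895 reads. A count of 3 reads per library was taken as the limit of detection, which covers counting error only. On simulated data with 200 changed genes, limma called 87 of 96 genes changed 2-fold, 102 of 104 changed 4-fold and 23 unchanged genes of 11959 tested.

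Gene positions and the windows of 250 bases before the start are from RefSeq on GRCm38, with windows for 9 of the 10 members. Shared runs were searched in GENCODE vM21 transcripts. The named genes are every member, LIM cofactors and LIM-only genes, the partner and marker lists and the 3 nearest profiles of each called member. Neighbours within 20 kb were added after values had been seen. Of the marker lists, 2 genes are not reported here and were left out of the counts and sums after values had been seen, for a reason that does not depend on their values. The members and lists were chosen with earlier results of these data known. Alternatives were pseudocounts of 1 and 0.01, no filter, 1 RPKM in both libraries of either genotype, quantile normalization, scaling by median ratios, unadjusted p, treat, eBayes without trend, a replicate block and dropping each library in turn. Limma voom on recovered reads, with the same genes or with genes of at least 10 reads, was chosen after seeing the data. Python 3.11.15, numpy 2.4.6, pandas 2.3.3, scipy 1.17.1 and matplotlib 3.10.9 were used.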

Additional observations from a re-analysis of the deposited data

How the results depend on the processing

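The 4 libraries come from 2 pools, so no result covers variation between embryos. *Lhx1* and *Lmx1b* were called under each of 16 alternatives, *Lhx5* and *Isl1* under 15 and *Lhx2* under 10. Unadjusted p, counted among the 16, keeps every call of the main fit, so it could not lose a member. With no filter on RPKM, where 24421 genes were tested, 1 member was called higher and 1 lower, and over all genes 30 were called higher and 14 lower in place of 440 and 322, which raised the share of higher calls from 57.7% to 68.2%. The treat test against a fold of 1.5 called 131 genes higher and 77 lower. Leaving out 1 library at a time gave 258 to 437 genes higher and 212 to 266 lower, both lowest without Homo library 2, and 2 or 3 members higher and 2 lower. *2310009B15Rik*, 3139 bases from *Lhx9* and not called (log2 fold change 0.08), ranged from -0.11 without Het library 1 to 0.27 without Het library 2. The cause was not tested. No cofactor or LIM-only gene was called under the alternatives run, and the difference in the share of *Lhx1* and *Lhx5* stayed between -35.8 and -33.4 percentage points. Under the scalings tried the median log2 fold change of all genes lay between -0.01 and 0.01. Such scalings bring this about themselves, so it is no check on a shift of all RNA.

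By the labels, same-numbered libraries have only a number in common. Their deviations from the genotype means correlated weakly (r = 0.0475 over 12046 genes, a description). This value cannot show whether they shared a step of preparation. With the replicate number as a block, 3 members were called higher and 2 lower, and over all genes 459 were called higher and 342 lower. Voom on genes with at least 10 reads called 3 members higher and 3 lower, the additional one being *Lhx4*. The 5 members below the filter had at most 39 reads in a library, which limits what could be detected.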

Other observations

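The LIM homeodomain genes of the forebrain, *Lhx6* and *Lhx8*, were at or near 0. *Lhx6* read 0.0483 and 0.0610 RPKM in Het and 0.0688 and 0.102 in Homo, from 2, 4, 4 and 5 reads. *Lhx8* had 1 read in each Het library and none in Homo. Neither passed the filter. Of the 11 RefSeq windows found for 9 of the 10 LIM homeodomain genes studied, 5 held a CANNTG match, as did 66.2% of all 32851 windows. The homeodomain core TAATTA, on either strand, was in 0 of the 11 windows and in 4.84% of all 32851 windows.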
